A study of Mus musculus with 16 samples.

Results

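The 10 genes described here are Trp53, which encodes the transcription factor p53, and 9 genes that p53 is known to activate, Mdm2, Ccng1, Zmat3, Trp53inp1, Phlda3, Bax, Aen, Perp and Eda2r. They were chosen by name, out of 54123 genes to which reads could be assigned, and all 10 passed the filter on low counts that left 15289 genes for testing. Their RNA was measured in 16 libraries of mouse colon organoids, epithelial cultures grown in a gel from colon crypts. The organoids came from the first (proximal) or the last (distal) stretch of the colon of female mice aged 8 weeks and carried lentiviral Cas9 with either Scramble-sgRNA, the control guide, or Cdx2-sgRNA. After 4 months of culture they spent 2 days in WENR-plus medium, which holds Wnt3a, EGF, Noggin and R-spondin 1, and then 3 days in either WENR-plus or WENR-minus medium, which lacks these factors. This gives 8 groups of 2 libraries.

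All 8 groups shared 1 genotype, heterozygous for a Cre-inducible BrafV600E allele and for a tdTomato reporter, and no Cre treatment is named for these libraries. According to the methods, both replicates of a group derive from separate mice, and the Cdx2-sgRNA organoids grew from single cells with frameshifts in both Cdx2 alleles. Each Cdx2-sgRNA culture is therefore 1 clone, whereas the Scramble-sgRNA organoids were selected in bulk. An effect of the guide and of the choice of clone cannot be told apart.

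The p53 protein binds DNA as a tetramer and switches on genes that halt the cell cycle, repair DNA, limit growth or start cell death. In unstressed cells it is kept scarce by Mdm2, a ubiquitin ligase that is itself made from a p53 target gene, so that the target closes a negative feedback loop. In the intestine the pathway is best known for the death and arrest of crypt cells after DNA damage. Several of its targets also have other activators, and their RNA is not a measure of p53 protein or its activity.

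A p53 binding site is built of decamers called half-sites, and 2 of these with a spacer of at most 13 bases make a full site. Half-sites were looked for on both strands (the motif is its own reverse complement) in RefSeq promoter windows of GRCm38.p6, from 250 bases before to 50 bases after a start. Of the 10 genes 7 had a window, and Zmat3, Trp53inp1 and Perp had none. A half-site lay in the windows of 5 genes, Trp53, Mdm2, Ccng1, Bax and Aen. By window this was 6 of the 8 windows of the 7 genes, beside 8.36% of all 32851 windows. No half-site was found in the windows of Phlda3 and Eda2r. None of the 7 held a full site, which occurred in 0.0731% of all windows, among them 1 of the 2 windows of Cdkn1a, the gene of the cell cycle inhibitor p21. The stretches are shown because they give the letters behind these counts, with the half-sites in capitals, read 5′ to 3′ on the strand of the gene:
Trp53, chr11:69580264-69580313, plus strand: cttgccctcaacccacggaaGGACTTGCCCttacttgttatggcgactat
Mdm2, chr10:117710915-117710964, minus strand: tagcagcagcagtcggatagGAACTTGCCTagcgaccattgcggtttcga
Ccng1, chr11:40755442-40755491, minus strand: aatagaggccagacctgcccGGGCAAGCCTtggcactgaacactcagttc
Bax, chr7:45467070-45467119, minus strand: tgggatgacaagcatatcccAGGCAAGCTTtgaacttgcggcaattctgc
Aen, chr7:78895927-78895956, plus strand: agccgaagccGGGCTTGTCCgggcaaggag
Cdkn1a, chr17:29090886-29090957, plus strand: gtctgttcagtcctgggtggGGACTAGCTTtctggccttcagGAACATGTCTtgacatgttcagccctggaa

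The first base of the half-site was 75 bases before the start in Trp53, 186 in Mdm2, 185 in Ccng1 and 201 in Bax. Aen has 2 starts in the table, and its half-site lay 10 bases after one and 121 bases before the other. A match gives the letters in a window and does not show binding by p53. Sites outside the windows were not looked for, so a window without a site does not mean a gene without one.

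In GRCm38 the genes lie on chromosomes 11 (Trp53, 69580359 to 69591873, plus strand; Ccng1, 40748552 to 40755311, minus strand), 10 (Mdm2, 117688875 to 117710758, minus; Perp, 18845020 to 18857073, plus) and 7 (Bax, 45461697 to 45466898, minus; Aen, 78895854 to 78911209, plus). The other genes are on chromosomes 3 (Zmat3, 32334792 to 32366014, minus), 4 (Trp53inp1, 11156431 to 11174379, plus), 1 (Phlda3, 135766119 to 135769136, plus) and X (Eda2r, 97333840 to 97377216, minus). Only Bax overlapped another annotated gene, Gm45808, to which no read was assigned.

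Library totals ranged from 12465194 to 18922143 counts (median 16836530). The 6 epithelial markers (Epcam, Cdh1, Krt8, Krt18, Krt19 and Vil1) held at least 2493 reads in every library, whereas of 7 fibroblast markers Dcn and Lum were at 0 in all 16, Pdgfrb held 1 to 138 reads and the other 4 no more than 18. Cdx2 RNA, read as a check of the targeted gene, was 177 ± 36.5 CPM with Scramble-sgRNA and 72.4 ± 2.00 with Cdx2-sgRNA in proximal WENR-minus organoids and 134 ± 10.3 and 31.6 ± 2.44 in proximal WENR-plus organoids (CPM are counts scaled to a TMM-adjusted library size, as mean ± SD, n = 2). Distal WENR-minus organoids held 111 ± 1.69 with Scramble-sgRNA and 106 ± 28.5 with Cdx2-sgRNA, and distal WENR-plus organoids 72.4 ± 6.28 and 56.2 ± 8.52. An edited allele can still give full-length RNA, so this level does not check the editing itself. The 2 proximal Cdx2-sgRNA cultures stood apart from each other. All 10 genes were higher in replicate 1 than in replicate 2 in WENR-plus (median log2 difference 0.69) and 9 of 10 in WENR-minus (median 0.47), while the medians of the other 6 groups lay between −0.20 and 0.06. Where a call rests on replicate 1, its value without that library is given.

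Per transcript length, as TPM summed per gene, Perp had the highest median over the 16 libraries (240 TPM), followed by Ccng1 (97.05), Mdm2 (48.0) and Bax (40.1). Trp53inp1 (27.0), Trp53 (18.8), Aen (14.4), Eda2r (11.4), Zmat3 (10.4) and Phlda3 (9.34) came after these. The ranges overlapped widely: Phlda3 ran from 2.93 to 25.7 TPM and Zmat3 from 4.44 to 24.4, so the order of the lower genes is that of their medians only. Eda2r varied most among the groups, 20.8-fold in mean CPM between the lowest and the highest, followed by Trp53inp1 with 8.90-fold and Aen with 7.61-fold. Mdm2 varied least, with 1.68-fold.

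**Figure D1:**
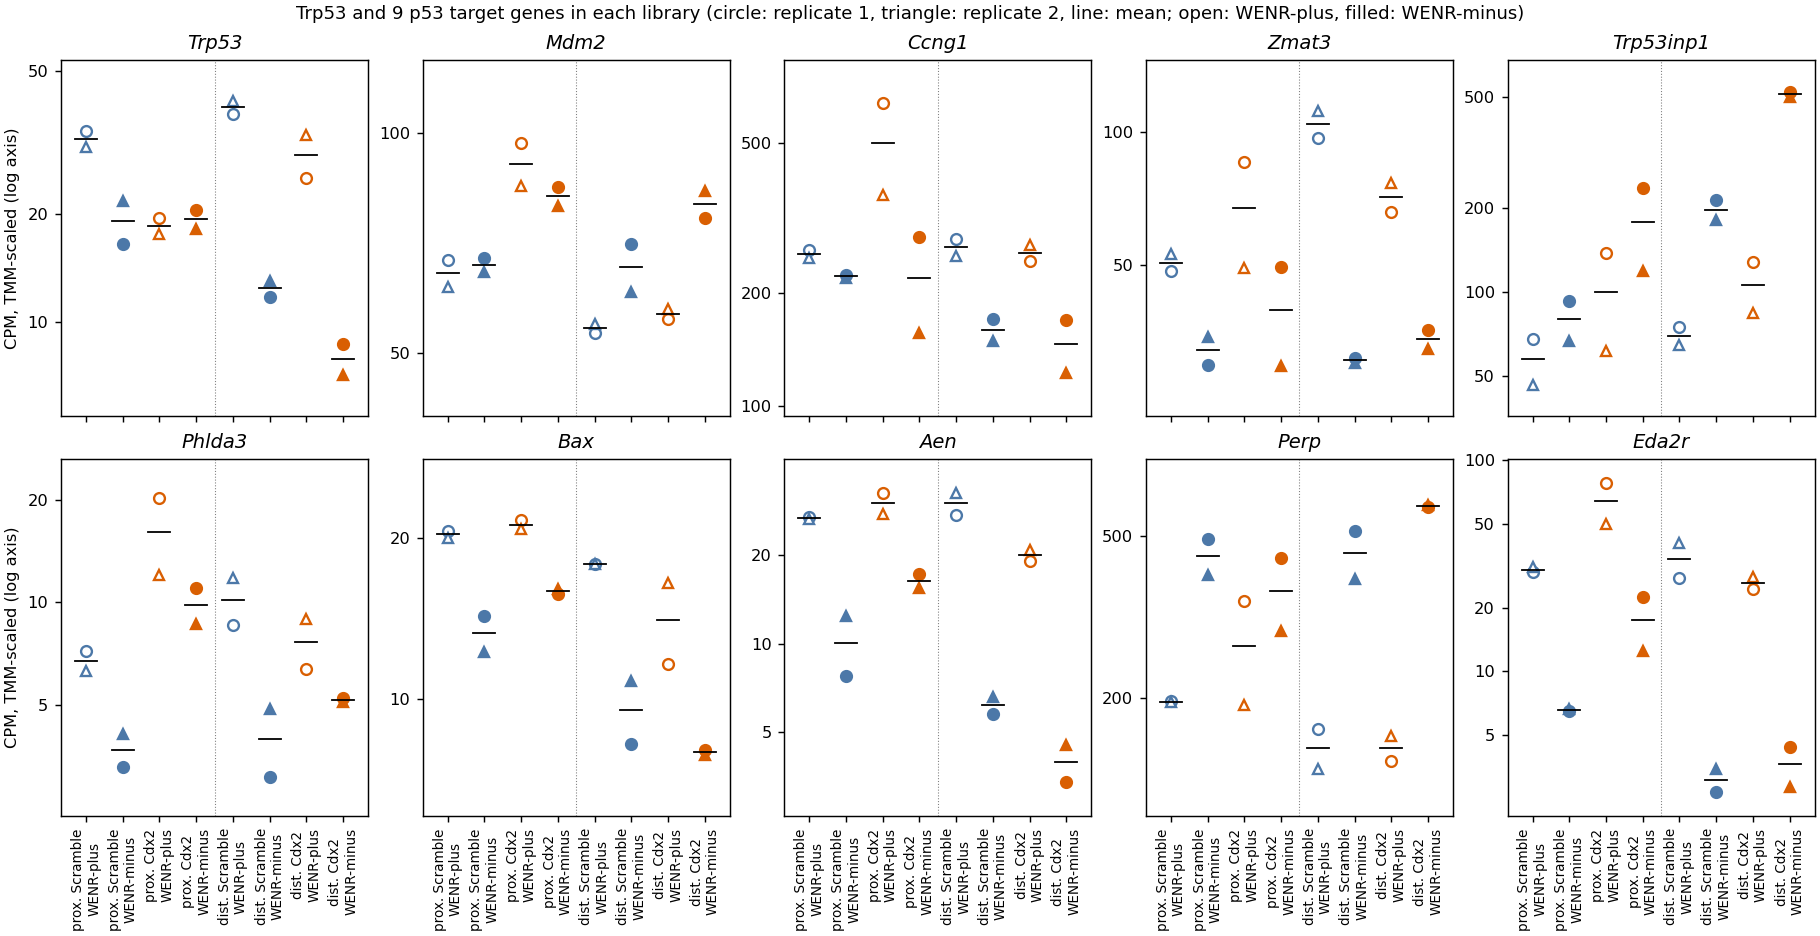
CPM after TMM scaling (log axis) of the 10 genes in each of the 16 libraries, with blue for Scramble-sgRNA and orange for Cdx2-sgRNA organoids, open symbols for WENR-plus, filled ones for WENR-minus, circles for replicate 1, triangles for replicate 2 and lines for the means of 2. Eda2r and Aen are lower in both WENR-minus libraries than in both WENR-plus libraries of each region and guide, and Trp53inp1 and Perp are highest in the distal Cdx2-sgRNA WENR-minus libraries.

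The first question was how the genes differed when the WENR factors were withdrawn. In distal organoids Trp53, Zmat3, Bax, Aen and Eda2r fell with both guides, and Perp and Trp53inp1 rose. In distal organoids with Scramble-sgRNA 6 of the 10 genes were called lower and 2 higher at an adjusted p under 0.05, where 20.2% of all tested genes were called lower and 20.3% higher. With Cdx2-sgRNA, distal organoids had 6 lower and 3 higher genes, against 24% and 23% of all genes. In proximal organoids 4 genes were lower and 1 was higher with Scramble-sgRNA (all genes 12.9% and 16.4%), and 3 were lower and none was higher with Cdx2-sgRNA (all genes 5.17% and 8.33%). The median log2 fold change of the 10 genes was −1.13 and −0.81 in distal Scramble-sgRNA and Cdx2-sgRNA organoids and −0.64 and −0.57 in proximal ones, beside −0.11, −0.10, −0.06 and −0.03 over all tested genes.

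The main fit did not use the pairing of WENR-plus and WENR-minus libraries of a region, guide and replicate. A fit with the culture as a block did, and called more of the genes in proximal organoids. In proximal Scramble-sgRNA organoids it called 6 lower and 2 higher, and with Cdx2-sgRNA 5 lower and 2 higher. Zmat3, Phlda3 and Trp53inp1 were added in both, and Perp in Cdx2-sgRNA organoids. Distal Scramble-sgRNA organoids had 7 lower and 2 higher genes under this block, with Ccng1 added at −0.73 (SE 0.15, adjusted p = 0.00245).

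Trp53 itself held 37.9 and 41.2 CPM in the 2 distal Scramble-sgRNA libraries in WENR-plus and 11.8 and 13.1 in WENR-minus. In distal Cdx2-sgRNA organoids the values were 25.2 and 33.2 against 8.71 and 7.11. Neither pair of groups overlapped, with log2 fold changes of −1.67 for Scramble-sgRNA (SE 0.19, adjusted p = 0.000102) and −1.88 for Cdx2-sgRNA (SE 0.20, adjusted p = 2.59e-05). In proximal Scramble-sgRNA organoids Trp53 fell from 33.9 and 30.7 to 16.5 and 21.7 CPM (−0.76, SE 0.19, adjusted p = 0.0113), a call that was lost without WENR-plus replicate 1 (adjusted p = 0.0800) or WENR-minus replicate 1 (adjusted p = 0.109). Proximal Cdx2-sgRNA organoids held 19.5 and 17.6 CPM in WENR-plus and 20.6 and 18.2 in WENR-minus (0.06, SE 0.19, adjusted p = 0.884), and here the groups overlapped. Estimated counts of Trp53 were spread unevenly over its transcripts, since Trp53-203 took between 0 and 96.7% of them and Trp53-201 between 0 and 93.0%, and only the sum over transcripts is used here.

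Of the 2 genes that act back on p53, Mdm2 rose in 1 of the 4 comparisons and Ccng1 fell in 2. Mdm2, the ubiquitin ligase, held 53.3 and 54.9 CPM in distal Scramble-sgRNA organoids in WENR-plus and 70.5 and 60.7 in WENR-minus, which did not pass the test (log2 fold change 0.28, SE 0.12, adjusted p = 0.0939). With Cdx2-sgRNA it rose from 55.7 and 57.5 to 76.7 and 83.5 CPM (0.50, SE 0.12, adjusted p = 0.00585). Its proximal values were 67.0 and 61.6 against 67.5 and 64.6 CPM with Scramble-sgRNA and 96.8 and 84.6 against 84.5 and 79.5 with Cdx2-sgRNA, and neither difference passed the test (adjusted p = 0.849 and 0.482).

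Ccng1 encodes cyclin G1, which recruits a phosphatase to Mdm2. Its largest change came in proximal Cdx2-sgRNA organoids, where it fell from 639 and 364 to 282 and 157 CPM (−1.19, SE 0.29, adjusted p = 0.0224). Replicate 1 was above replicate 2 in both media, and without WENR-plus replicate 1 the change was −0.72 (adjusted p = 0.143) and without WENR-minus replicate 2 it was −0.82 (adjusted p = 0.113). A fit of the compared groups alone did not call it either (adjusted p = 0.207). Within the 2 cultures the change was −1.18 and −1.21 on the log2 scale. In distal Cdx2-sgRNA organoids Ccng1 fell from 243 and 267 to 170 and 122 CPM (−0.80, SE 0.29, adjusted p = 0.0407). That call was lost under RLE size factors (adjusted p = 0.0539), with length-scaled counts (adjusted p = 0.0504) and without any one of 3 of its 4 libraries (adjusted p = 0.0962 without WENR-plus replicate 1, 0.150 without WENR-plus replicate 2 and 0.272 without WENR-minus replicate 2). With Scramble-sgRNA it was 278 and 250 against 170 and 149 CPM in distal and 260 and 247 against 224 and 219 in proximal organoids (adjusted p = 0.0666 and 0.652).

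Among the growth regulators, Zmat3 fell and Trp53inp1 rose in both distal comparisons and Phlda3 fell in distal Scramble-sgRNA organoids, and under the culture block all 3 also passed the test in both proximal comparisons. Zmat3, an RNA-binding zinc finger protein, fell from 96.7 and 112 to 30.9 and 30.2 CPM in distal Scramble-sgRNA organoids (−1.77, SE 0.27, adjusted p = 0.000450) and from 66.0 and 76.6 to 35.8 and 32.5 with Cdx2-sgRNA (−1.06, SE 0.27, adjusted p = 0.00637, and 0.0543 without WENR-minus replicate 2). In proximal organoids it was 48.5 and 52.9 against 29.8 and 34.6 CPM with Scramble-sgRNA and 85.5 and 49.3 against 49.6 and 29.7 with Cdx2-sgRNA (adjusted p = 0.0838 and 0.0778). Under the culture block both of these passed, at −0.66 (SE 0.13, adjusted p = 0.00288) and −0.76 (SE 0.13, adjusted p = 0.00293).

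Phlda3 encodes a pleckstrin homology protein that restrains the kinase Akt. In distal Scramble-sgRNA organoids it fell from 8.61 and 11.8 to 3.08 and 4.87 CPM (−1.35, SE 0.33, adjusted p = 0.00662), a call that was lost without WENR-minus replicate 1 (adjusted p = 0.0722) or WENR-plus replicate 2 (adjusted p = 0.0721). With Cdx2-sgRNA it was 6.36 and 8.94 against 5.25 and 5.10 CPM (−0.56, SE 0.33, adjusted p = 0.178), and its proximal differences did not pass the test either (adjusted p = 0.0675 and 0.158). Under the culture block it was called lower in both, at −0.87 with Scramble-sgRNA (SE 0.24, adjusted p = 0.0160) and −0.68 with Cdx2-sgRNA (SE 0.22, adjusted p = 0.0464).

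Trp53inp1, whose protein takes part in the activation of p53 and in autophagy, had the largest rise of the 10 genes in distal Cdx2-sgRNA organoids. Its level there was 128 and 84.2 CPM in WENR-plus and 523 and 502 in WENR-minus, which amounts to 2.27 on the log2 scale (SE 0.41, adjusted p = 0.000851). In distal Scramble-sgRNA organoids it rose from 75.2 and 64.9 to 215 and 181 CPM (1.50, SE 0.40, adjusted p = 0.0114), which was lost without WENR-minus replicate 1 (adjusted p = 0.0617) or WENR-plus replicate 2 (adjusted p = 0.0651). Proximal values were 68.3 and 46.8 against 93.2 and 67.2 CPM with Scramble-sgRNA and 138 and 61.8 against 237 and 119 with Cdx2-sgRNA, and these groups overlapped (adjusted p = 0.397 and 0.193). Within cultures both proximal pairs rose, and the culture block gave 0.49 with Scramble-sgRNA (SE 0.14, adjusted p = 0.0216) and 0.86 with Cdx2-sgRNA (SE 0.14, adjusted p = 0.00260). The annotated processed transcript Trp53inp1-202 took 68.9% of the reads of the gene over all libraries (54.8 to 77.6% by library), so the sum is mostly RNA that is not annotated as coding.

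Of the 4 genes linked to cell death, Eda2r and Aen were called lower in all 4 comparisons, Bax was called lower in 3 and Perp higher in 3. Eda2r, a receptor of the tumour necrosis factor family, had the largest changes of all 10 genes. In distal Scramble-sgRNA organoids it fell from 27.7 and 40.4 to 2.69 and 3.44 CPM (−3.47, SE 0.35, adjusted p = 5.52e-05), and with Cdx2-sgRNA from 24.5 and 28.0 to 4.40 and 2.84 (−2.86, SE 0.34, adjusted p = 5.96e-05). In proximal organoids it fell from 29.6 and 31.0 to 6.51 and 6.62 CPM with Scramble-sgRNA (−2.21, SE 0.32, adjusted p = 0.000862). With Cdx2-sgRNA it fell from 77.6 and 49.8 to 22.5 and 12.5 (−1.87, SE 0.31, adjusted p = 0.00481), so that both WENR-minus libraries there lay between the media of the other cultures. Without a replicate 1 library of that group it was −1.50 (WENR-plus left out) or −2.31 (WENR-minus left out), still called, but a fit of the compared groups alone ended this call (−1.86, adjusted p = 0.133).

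Aen, a nuclease that enhances apoptosis, was called lower in all 4 comparisons as well. Its distal values fell from 27.4 and 32.5 to 5.77 and 6.59 CPM with Scramble-sgRNA (−2.28, SE 0.23, adjusted p = 5.52e-05) and from 19.1 and 20.7 to 3.38 and 4.52 with Cdx2-sgRNA (−2.33, SE 0.24, adjusted p = 2.39e-05). In proximal organoids it fell from 26.9 and 26.5 to 7.75 and 12.4 CPM (−1.40, SE 0.22, adjusted p = 0.00123) and, with Cdx2-sgRNA, from 32.5 and 27.6 to 17.2 and 15.4 (−0.88, SE 0.22, adjusted p = 0.0237). The last of these calls was lost whichever of its 4 libraries was left out (adjusted p = 0.0704 to 0.108), and in the fit of the compared groups alone (adjusted p = 0.133), whereas the culture block kept it (adjusted p = 0.00620).

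Bax, a pore-forming member of the Bcl2 family, fell in 3 of the 4 comparisons. It went from 17.9 and 17.9 to 8.23 and 10.8 CPM in distal Scramble-sgRNA organoids (−0.91, SE 0.19, adjusted p = 0.00326) and from 11.6 and 16.5 to 8.04 and 7.86 with Cdx2-sgRNA (−0.82, SE 0.20, adjusted p = 0.00481, and 0.0909 without WENR-plus replicate 2). In proximal Scramble-sgRNA organoids it fell from 20.6 and 20.1 to 14.3 and 12.2 CPM (−0.62, SE 0.19, adjusted p = 0.0315). That call was lost without any one of its 4 libraries (adjusted p = 0.0751 to 0.210) and without a filter on low counts (adjusted p = 0.187). Values with Cdx2-sgRNA were 21.6 and 20.8 against 15.7 and 16.1 CPM (adjusted p = 0.177), without overlap.

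Perp, a tetraspan membrane protein found in desmosomes, moved against these 3 genes. It rose from 168 and 133 to 517 and 392 CPM in distal Scramble-sgRNA organoids (1.60, SE 0.28, adjusted p = 0.00105) and from 139 and 161 to 592 and 596 with Cdx2-sgRNA (1.98, SE 0.28, adjusted p = 0.000177). The proximal values were 196 and 195 against 493 and 402 CPM with Scramble-sgRNA (1.19, SE 0.28, adjusted p = 0.00852, and 0.0503 without WENR-minus replicate 1). With Cdx2-sgRNA they overlapped, at 346 and 192 against 442 and 292 (0.45, SE 0.27, adjusted p = 0.316), and the culture block gave 0.48 (SE 0.13, adjusted p = 0.0248).

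Cultures could also be read one by one, as the log2 ratio of CPM between the media in each of the 8. Ccng1, Zmat3, Phlda3, Bax, Aen and Eda2r were lower in WENR-minus in 8 of 8 cultures, with Eda2r between −3.56 and −1.79 and Bax between −1.12 and −0.37. Trp53inp1 (0.45 to 2.57) and Perp (0.36 to 2.09) were higher in 8 of 8. Trp53 was lower in 6 of 8, the exceptions being both proximal Cdx2-sgRNA cultures. Mdm2 was lower in those same 2 and higher in 6, though by only 0.01 and 0.07 in the 2 proximal Scramble-sgRNA cultures.

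**Figure D2:**
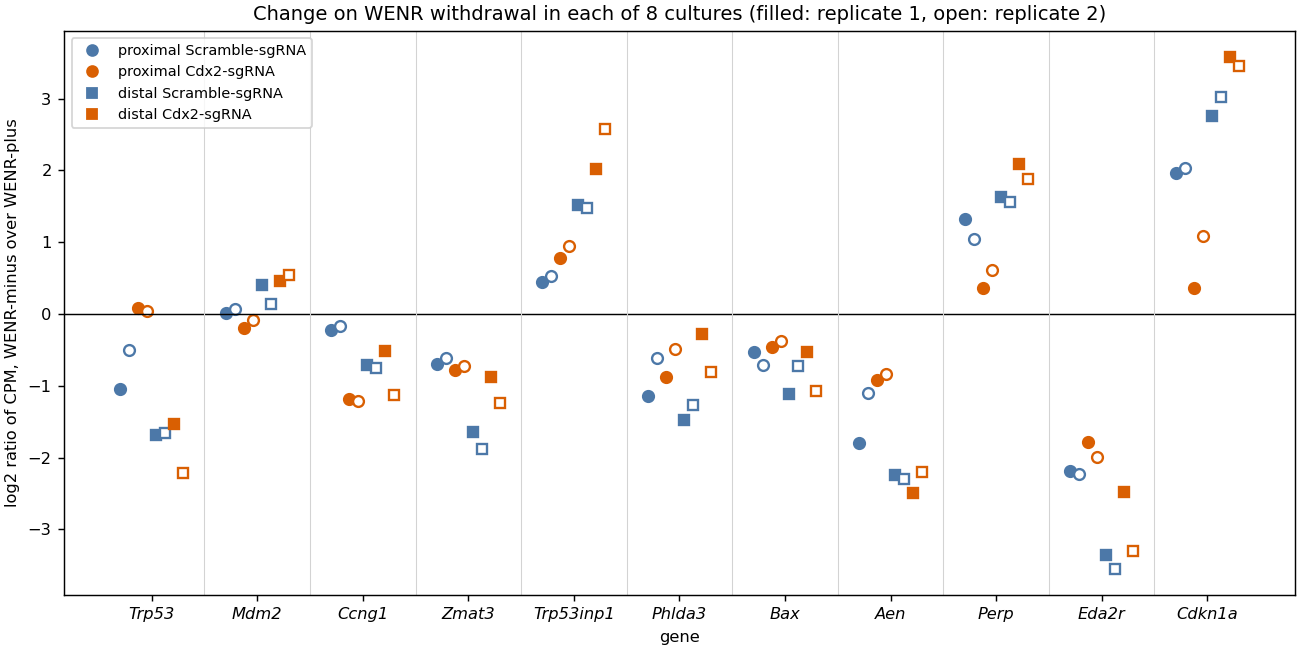
Log2 ratio of CPM in WENR-minus over WENR-plus medium for the 10 genes and Cdkn1a in each of 8 cultures, with circles for proximal and squares for distal organoids, blue for Scramble-sgRNA, orange for Cdx2-sgRNA, filled symbols for replicate 1 and open ones for replicate 2. Trp53inp1, Perp and Cdkn1a lie above 0 in 8 of 8 cultures, whereas Ccng1, Zmat3, Phlda3, Bax, Aen and Eda2r lie below 0 in 8 of 8.

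The RNA of cell type markers and of proliferation genes moved with the medium. The summed level of 12 proliferation genes, none of which was at 0 in any library, was 1768 to 1972 CPM in WENR-plus and 388 to 707 in WENR-minus for proximal Scramble-sgRNA organoids, 1859 to 1980 and 474 to 678 for distal Scramble-sgRNA and 1469 to 1962 and 240 to 349 for distal Cdx2-sgRNA organoids. In proximal Cdx2-sgRNA organoids it was 811 to 1018 and 881 to 970 CPM. Of the 12 genes 11 were called lower in each of the first 3 comparisons, and none was called in the last (0 with an unadjusted p under 0.05, 0 by DESeq2). The 7 colonocyte markers, also above 0 in every library, summed to 206 to 260 CPM in WENR-plus and 6780 to 10050 in WENR-minus in proximal Scramble-sgRNA organoids, to 263 to 431 and 7071 to 11190 in distal Scramble-sgRNA, to 435 to 654 and 14900 to 15990 in distal Cdx2-sgRNA and to 136 to 240 and 519 to 1591 in proximal Cdx2-sgRNA organoids. Of these 7 markers 6 were called higher in proximal Scramble-sgRNA, 6 in distal Scramble-sgRNA, 5 in distal Cdx2-sgRNA and 1 in proximal Cdx2-sgRNA organoids, and none lower. Their median log2 fold changes in that order were 3.5, 4.3, 4.5 and −0.29, so the last sum does not stand for the whole list. Stem cell markers fell in all 4 comparisons, with 4 and 3 of 5 called lower in proximal Scramble-sgRNA and Cdx2-sgRNA organoids and 5 in each distal comparison, and none higher. Their sum went from 488 to 546 CPM in WENR-plus to 122 to 189 in WENR-minus in proximal Cdx2-sgRNA organoids, where Eda2r, Aen and Ccng1 fell, and from 324 to 522 to 92.2 to 193 in the other groups. Of the 6 goblet cell markers 4 were called higher in each of those other groups and none in proximal Cdx2-sgRNA organoids. Of the 6 epithelial markers 6 and 3 were called higher in proximal Scramble-sgRNA and Cdx2-sgRNA organoids and 5 in each distal comparison, and none lower. In bulk RNA, fewer cells of a type and less RNA per cell cannot be told apart, and the part of these shifts in the changes of the p53 target genes was not tested.

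A further 34 p53 target genes, listed by hand, split in both directions. Of the 33 with enough counts, 11 were higher and 8 lower on withdrawal in distal Scramble-sgRNA, 10 and 6 in distal Cdx2-sgRNA, 7 and 4 in proximal Scramble-sgRNA and 2 and 4 in proximal Cdx2-sgRNA organoids, with list medians of −0.21, 0.04, −0.13 and −0.24. The shares of all tested genes in the same order were 20.3% and 20.2%, 23% and 24%, 16.4% and 12.9%, and 8.33% and 5.17%. Cdkn1a, whose protein p21 arrests the cell cycle, rose from 39.0 and 30.4 to 264 and 247 CPM in distal Scramble-sgRNA organoids (2.88, SE 0.22, adjusted p = 2.31e-05) and from 36.3 and 34.2 to 435 and 373 with Cdx2-sgRNA (3.52, SE 0.22, adjusted p = 2.98e-06). In proximal organoids it rose from 25.2 and 21.6 to 98.1 and 88.8 CPM with Scramble-sgRNA (2.00, SE 0.21, adjusted p = 0.000212), and it was 37.5 and 23.2 against 48.2 and 49.0 with Cdx2-sgRNA (0.68, SE 0.21, adjusted p = 0.0513). Cdkn1a was higher in WENR-minus in 8 of 8 cultures, as Perp and Trp53inp1 were.

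At the ends of that list stood Psrc1, a microtubule-associated protein, and several genes of arrest and death. Psrc1 had the lowest called log2 fold change in all 4 comparisons, −2.71 and −1.63 in proximal Scramble-sgRNA and Cdx2-sgRNA organoids and −3.99 and −4.66 in distal ones (adjusted p = 0.00285, 0.0454, 0.000353 and 0.000172). The highest was that of the death receptor Fas in proximal Scramble-sgRNA organoids (3.47, adjusted p = 0.00218), of Trp53i11 in proximal Cdx2-sgRNA organoids (1.09, adjusted p = 0.0113) and of Cdkn1a in both distal comparisons. Psrc1 held 3 to 571 and Fas 3 to 81 reads in a library, so their values can rest on few reads.

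**Figure D3:**
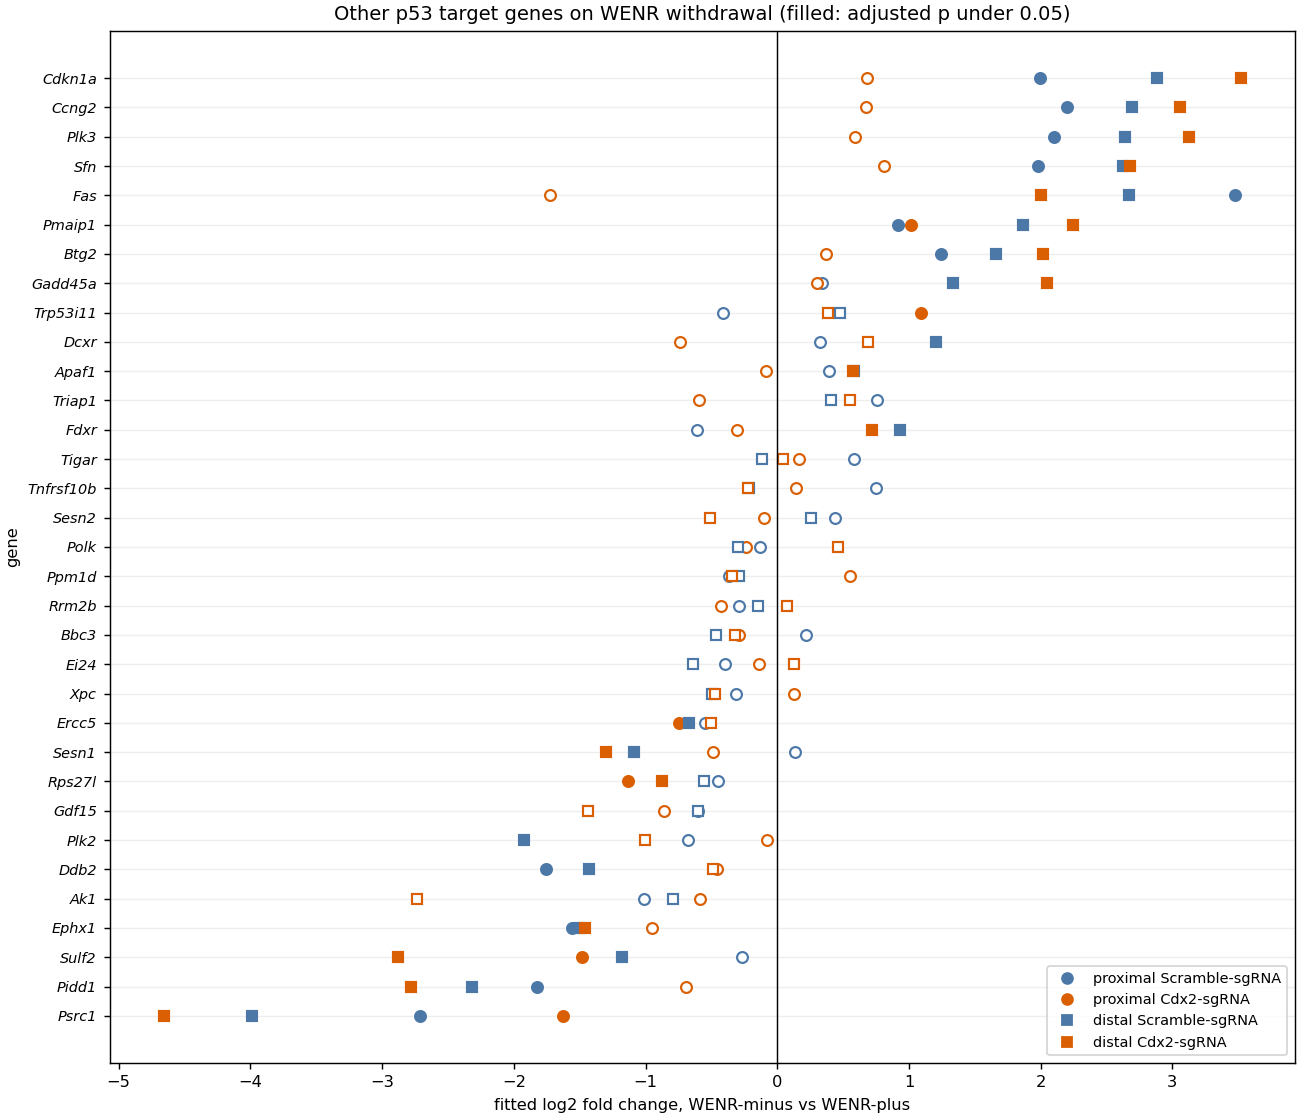
Fitted log2 fold change between WENR-minus and WENR-plus medium for 33 further p53 target genes, ordered by their mean over the 4 comparisons, with filled symbols for an adjusted p under 0.05. Cdkn1a, Ccng2, Plk3 and Sfn are called higher in the 3 comparisons other than proximal Cdx2-sgRNA, and Psrc1 is called lower in all 4.

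Regulators of p53 were counted in the same way. Of 13 tested among 15, 6 were lower in proximal Scramble-sgRNA, distal Scramble-sgRNA and distal Cdx2-sgRNA organoids and 3 in proximal Cdx2-sgRNA organoids, and 1, 2, 2 and 2 were higher, beside 12.9%, 20.2%, 24% and 5.17% of all genes lower and 16.4%, 20.3%, 23% and 8.33% higher. The damage checkpoint kinase Chek1 had the lowest called value in 3 comparisons (−2.53 in proximal Scramble-sgRNA, −3.12 in distal Scramble-sgRNA and −4.52 in distal Cdx2-sgRNA organoids, with adjusted p = 0.00347, 0.000790 and 0.000112), and its relative Chek2 in proximal Cdx2-sgRNA organoids (−1.10, adjusted p = 0.0120). The highest were the ubiquitin ligase Cop1 (0.71, 0.69 and 1.03 in the same order as for Chek1, adjusted p = 0.00615, 0.00447 and 0.000269) and the kinase Hipk2 in proximal Cdx2-sgRNA organoids (1.12, adjusted p = 0.00340). Chek1 held 4 to 265 reads in a library, so its values can rest on few reads. Trp63, a paralog of Trp53, was at 3 reads or fewer in all 16 libraries.

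The second question was what Cdx2-sgRNA did to the genes at equal region and medium. Calls were made in proximal organoids, where 8 of 9 were increases. In WENR-minus 4 of the 10 genes were called higher and none lower, against 12.7% and 18.3% of all tested genes, with a median log2 fold change of 0.31 beside −0.00 over all genes. In WENR-plus 4 were called higher and 1 lower, against 9.94% and 14.8%, with medians of 0.48 and −0.05. In distal organoids the main edgeR fit called no gene in WENR-minus, where 4.51% of all genes were higher and 5.25% lower. There 4 of the 10 had an unadjusted p under 0.05 and DESeq2 called 2 (Trp53 and Trp53inp1), beside 3984 and 2258 of all genes. None was called in distal WENR-plus either, where 0.137% of all genes were higher and 0.124% lower. In that medium 2 had an unadjusted p under 0.05 and DESeq2 called 0, beside 973 and 203 of all genes. The distal medians were 0.20 and −0.36. Genes without a call ran from −0.28 (Perp) to 0.31 (Mdm2) in proximal WENR-minus, from 0.06 (Bax) to 0.80 (Trp53inp1) in proximal WENR-plus, from −0.65 (Trp53) to 1.37 (Trp53inp1) in distal WENR-minus and from −0.59 (Aen) to 0.60 (Trp53inp1) in distal WENR-plus organoids.

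Phlda3 and Eda2r were higher with Cdx2-sgRNA in both media. Phlda3 held 10.99 and 8.62 CPM with Cdx2-sgRNA and 3.28 and 4.12 with Scramble-sgRNA in proximal WENR-minus organoids (1.40, SE 0.33, adjusted p = 0.00784), and 20.2 and 12.1 against 7.21 and 6.27 in WENR-plus (1.26, SE 0.32, adjusted p = 0.0155). For Eda2r the values were 22.5 and 12.5 against 6.51 and 6.62 CPM in WENR-minus (1.41, SE 0.32, adjusted p = 0.00679) and 77.6 and 49.8 against 29.6 and 31.0 in WENR-plus (1.07, SE 0.31, adjusted p = 0.0260). For both genes each Cdx2-sgRNA library lay above both Scramble-sgRNA libraries. Without the proximal Cdx2-sgRNA replicate 1 of the medium, Phlda3 was higher by 1.24 in WENR-minus and by 0.83 in WENR-plus (the second with adjusted p = 0.124), and Eda2r by 0.95 (adjusted p = 0.0508) and 0.71 (adjusted p = 0.179). Without Scramble-sgRNA replicate 1, Phlda3 had an adjusted p of 0.0593 in WENR-minus and 0.0590 in WENR-plus and Eda2r 0.114 in WENR-plus. Without Scramble-sgRNA replicate 2 both lost their call in WENR-plus (adjusted p = 0.0939 and 0.0992).

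The other calls were made in 1 medium each. In WENR-plus Mdm2 was 96.8 and 84.6 CPM with Cdx2-sgRNA and 67.0 and 61.6 with Scramble-sgRNA (0.50, SE 0.12, adjusted p = 0.0135), and Ccng1 was 639 and 364 against 260 and 247 (0.98, SE 0.29, adjusted p = 0.0310). Trp53 was the 1 gene called lower, at 19.5 and 17.6 against 33.9 and 30.7 CPM (−0.80, SE 0.19, adjusted p = 0.0103). In WENR-minus Trp53inp1 was 237 and 119 CPM against 93.2 and 67.2 (1.15, SE 0.40, adjusted p = 0.0473), and Aen 17.2 and 15.4 against 7.75 and 12.4 (0.69, SE 0.22, adjusted p = 0.0350). The counts of calls rested on single libraries and on the processing. Mdm2 lost its call without a filter on low counts (adjusted p = 0.0548), with length-scaled counts (adjusted p = 0.0718) and in a fit of the compared groups alone (adjusted p = 0.0582). That last fit also ended the calls of Ccng1 (adjusted p = 0.0710), Trp53inp1 (adjusted p = 0.0739) and Aen (adjusted p = 0.135).

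Without proximal Cdx2-sgRNA replicate 1 only Phlda3 stayed called in WENR-minus and only Trp53 in WENR-plus. Trp53inp1 then stood at 0.59 (adjusted p = 0.321), Aen at 0.64 (adjusted p = 0.103), Mdm2 at 0.39 (adjusted p = 0.0948) and Ccng1 at 0.51 (adjusted p = 0.253). The controls mattered as well: without Scramble-sgRNA replicate 1 there was 1 call in each medium, and without Scramble-sgRNA replicate 2 there was 1 in WENR-plus. Mdm2 lost its call without Scramble-sgRNA replicate 2 (adjusted p = 0.0884), Ccng1 without either Scramble-sgRNA library (adjusted p = 0.0967 and 0.122) and Trp53inp1 without either one too (adjusted p = 0.0811 and 0.220). Aen lost its call without Scramble-sgRNA replicate 1 (adjusted p = 0.211) or Cdx2-sgRNA replicate 2 (adjusted p = 0.0708). Trp53 in WENR-plus was lost without Scramble-sgRNA replicate 1 (adjusted p = 0.0757) or Cdx2-sgRNA replicate 2 (adjusted p = 0.0733).

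In distal organoids Trp53inp1 came nearest to a call, with 523 and 502 CPM in Cdx2-sgRNA against 215 and 181 in Scramble-sgRNA organoids in WENR-minus (1.37, SE 0.40, adjusted p = 0.0528). Trp53 was 8.71 and 7.11 against 11.8 and 13.1 CPM there (−0.65, SE 0.20, adjusted p = 0.0591).

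Proximal Cdx2-sgRNA libraries also differed in other cell markers. The 6 goblet cell markers summed to 33.6 to 54.6 CPM in them and to 606 to 6960 in proximal Scramble-sgRNA libraries. The 6 immune cell markers summed to 6.56 to 25.7 CPM, against 0.730 to 1.78, with Csf1r at up to 261 and Cd68 at up to 188 reads in a library, whereas Cd3e was at 0 in 14 of 16 libraries and never above 1 read. The 7 fibroblast markers summed to 0.264 to 0.594 CPM, against 1.89 to 7.87. Of the 7 colonocyte markers 5 were lower with Cdx2-sgRNA in proximal WENR-minus, and 3 were lower and 1 higher in WENR-plus organoids. Mitochondrial rRNA took 22.4 and 20.5% of the counts with Cdx2-sgRNA and 17.7 and 17.9% with Scramble-sgRNA in proximal WENR-minus organoids, and 28.1 and 23.5% against 15.5 and 21.3% in WENR-plus. The groups did not overlap in either medium, replicate 1 held the higher share of both Cdx2-sgRNA pairs, and distal libraries lay between 20.3 and 27.1%. In WENR-plus, 5 of 12 proliferation genes were lower with Cdx2-sgRNA and 0 higher, and in WENR-minus 1 was lower and 3 higher. The part of these differences in the changes of the p53 target genes was not tested.

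Of the 33 other p53 target genes, 6 were higher and 9 lower with Cdx2-sgRNA in proximal WENR-minus organoids, 5 and 3 in proximal WENR-plus, 3 and 1 in distal WENR-minus and none in distal WENR-plus organoids (2 with an unadjusted p under 0.05, 1 by DESeq2). In the first 3 of these, 12.7% and 18.3%, 9.94% and 14.8%, and 4.51% and 5.25% of all genes were called. Pmaip1, which encodes the death-promoting protein Noxa, had the highest called value in the first 3 (2.33, 2.23 and 1.36, adjusted p = 9.66e-05, 0.000218 and 0.0111). The lowest in the same order were Fas (−4.12, adjusted p = 0.000817), the stress-induced sestrin Sesn1 (−1.22, adjusted p = 0.00554) and the sulfatase Sulf2 (−1.85, adjusted p = 0.0184). Cdkn1a was lower with Cdx2-sgRNA in proximal WENR-minus organoids (−0.94, SE 0.21, adjusted p = 0.00547), where Phlda3 and Eda2r were higher, and passed the test in none of the other 3 (adjusted p = 0.216, 0.0638 and 1). Among the 13 tested regulators 2 were higher and 2 lower in proximal WENR-minus, 1 and 2 in proximal WENR-plus, 0 and 2 in distal WENR-minus and none in distal WENR-plus organoids (1 with an unadjusted p under 0.05, 0 by DESeq2). They ran from Atr (0.95, adjusted p = 0.000254) to Cop1 (−0.79, adjusted p = 0.00313) in the first and down to Hipk2 (−1.31, adjusted p = 0.000390) in the second. In distal WENR-minus organoids the 2 lower genes were Chek2 (−1.19, adjusted p = 0.0154) and Atm (−1.02, adjusted p = 0.0222).

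**Figure D4:**
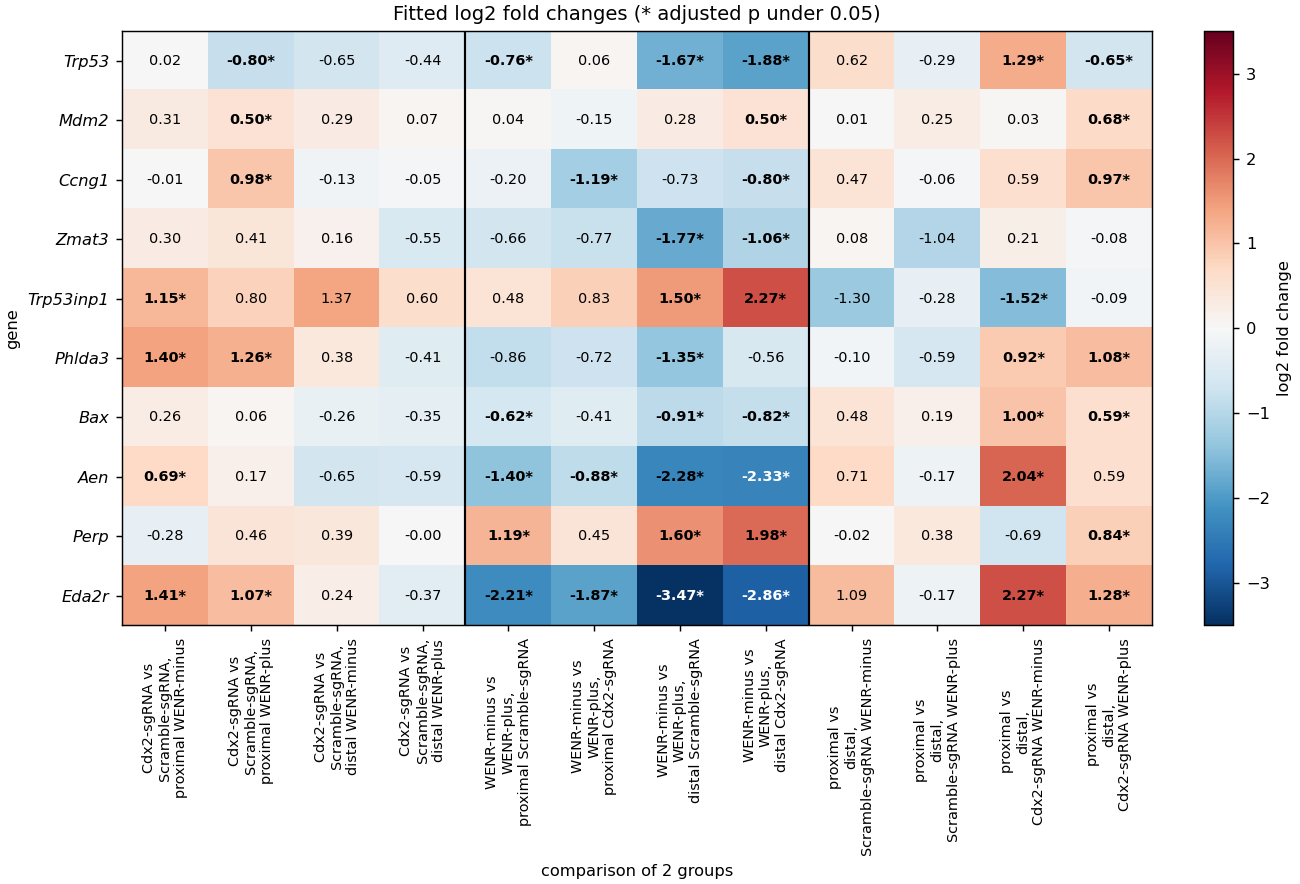
Fitted log2 fold changes of the 10 genes (rows) in the 12 comparisons of 2 groups (columns), with a colour scale from blue (lower) to red (higher), numbers in each cell and an asterisk with bold type where the adjusted p is under 0.05. Of the 4 columns for Cdx2-sgRNA against Scramble-sgRNA only the 2 proximal ones hold calls, and of the 4 for proximal against distal colon only the 2 with Cdx2-sgRNA.

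The third question was whether the regions differed. With Scramble-sgRNA no gene was called between proximal and distal organoids by edgeR in either medium, where 4.21% of all tested genes were higher and 5.74% lower in proximal WENR-minus and 0.733% and 1.39% in WENR-plus organoids. In WENR-minus 5 genes had an unadjusted p under 0.05 and DESeq2 called 2, Trp53inp1 and Eda2r, beside 3984 and 2297 of all genes. In WENR-plus 1 had such a p and DESeq2 called 1, beside 2165 and 795 of all genes. This was Zmat3, which held 48.5 and 52.9 CPM in proximal and 96.7 and 112 in distal organoids (−1.04, SE 0.26, adjusted p = 0.0739 in edgeR). The medians of the 10 genes were 0.27 and −0.17, beside 0.07 and 0.00 over all genes. Their values ran from −1.30 (Trp53inp1) to 1.09 (Eda2r) in WENR-minus and from −1.04 (Zmat3) to 0.38 (Perp) in WENR-plus.

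With Cdx2-sgRNA several of the genes were called between the regions, as were many of all genes. In WENR-minus 5 were higher and 1 lower in proximal organoids, against 24.6% and 24.4% of all genes, and in WENR-plus 6 were higher and 1 lower, against 11.2% and 18.1%. The medians were 0.75 and 0.64, beside 0.13 and −0.01. Eda2r was 22.5 and 12.5 CPM in proximal and 4.40 and 2.84 in distal WENR-minus organoids (2.27, SE 0.34, adjusted p = 0.000298), and Aen 17.2 and 15.4 against 3.38 and 4.52 (2.04, SE 0.24, adjusted p = 5.69e-05). Trp53 (1.29, SE 0.20, adjusted p = 0.000307), Bax (1.00, SE 0.20, adjusted p = 0.00162) and Phlda3 (0.92, SE 0.33, adjusted p = 0.0359) were higher as well, though Phlda3 lost its call whichever of the 4 libraries was left out (adjusted p = 0.0533 to 0.149). Trp53inp1 was lower in proximal organoids, at 237 and 119 against 523 and 502 CPM (−1.52, SE 0.40, adjusted p = 0.00871, and 0.0703 without proximal replicate 2). Without proximal replicate 1 Eda2r (1.79), Aen (1.97), Bax (1.02), Trp53inp1 (−2.10) and Trp53 (adjusted p = 0.00189) were still called. The other 4 genes ran from −0.69 (Perp) to 0.59 (Ccng1).

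In WENR-plus Eda2r (1.28, SE 0.31, adjusted p = 0.0104), Phlda3 (1.08, SE 0.32, adjusted p = 0.0266), Ccng1 (0.97, SE 0.29, adjusted p = 0.0281), Perp (0.84, SE 0.28, adjusted p = 0.0407), Mdm2 (0.68, SE 0.12, adjusted p = 0.00233) and Bax (0.59, SE 0.19, adjusted p = 0.0376) were higher in proximal Cdx2-sgRNA organoids. Trp53 was lower (−0.65, SE 0.19, adjusted p = 0.0229), with 19.5 and 17.6 CPM in proximal and 25.2 and 33.2 in distal organoids, the reverse of its order in WENR-minus. Trp53inp1 (−0.09), Zmat3 (−0.08) and Aen (0.59) did not pass the test. Only Mdm2 was still called without proximal replicate 1, when Eda2r stood at 0.91 (adjusted p = 0.0770), Phlda3 at 0.64 (adjusted p = 0.205), Ccng1 at 0.50 (adjusted p = 0.239), Perp at 0.34 (adjusted p = 0.368), Bax at 0.55 (adjusted p = 0.124) and Trp53 at −0.74 (adjusted p = 0.0501). Leaving out distal replicate 1 left 2 calls, with Eda2r at adjusted p = 0.0685, Ccng1 at 0.120, Phlda3 at 0.159, Perp at 0.165 and Bax at 0.242. Leaving out distal replicate 2 left 4, with Ccng1 at 0.0815, Perp at 0.0914 and Trp53 at 0.174. Without proximal replicate 2, Bax (adjusted p = 0.109) and Trp53 (adjusted p = 0.127) lost their calls. Both also lost them without a filter on low counts (adjusted p = 0.118 and 0.0842), and Bax with length-scaled counts (adjusted p = 0.0909). A fit of the compared groups alone left only Eda2r and Mdm2 called (adjusted p = 0.0741 to 0.103 for the others). Proliferation genes moved with the region here too: 11 of 12 were higher and 1 lower in proximal Cdx2-sgRNA organoids in WENR-minus, and 0 were higher and 3 lower in WENR-plus. Goblet cell markers were lower in 6 of 6 cases in both media, and of the 7 colonocyte markers 5 were lower in WENR-minus, whereas WENR-plus had 3 lower and 1 higher. The 2 immune cell markers with enough counts were both higher in proximal organoids in WENR-minus and 1 was in WENR-plus. Of 5 stem cell markers 2 were higher in WENR-minus and 1 lower in WENR-plus. Epithelial markers had 1 of 6 higher and 4 lower in WENR-minus and 0 higher and 3 lower in WENR-plus. In both media 1 of 2 tested fibroblast markers and the 1 tested endothelial marker were lower. Mitochondrial rRNA took 28.1 and 23.5% in proximal and 21.9 and 21.9% in distal WENR-plus organoids, and 22.4 and 20.5% against 22.4 and 27.1% in WENR-minus. The part of these markers and shares in the differences was not tested.

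In the same 2 comparisons 7 of the 33 other target genes were higher and 11 lower in WENR-minus (all genes 24.6% and 24.4%), from Psrc1 (4.92, adjusted p = 0.000149) to Plk3 (−3.42, adjusted p = 0.000252), and 4 were higher and 1 lower in WENR-plus (all genes 11.2% and 18.1%), from Psrc1 (1.88, adjusted p = 0.0140) to Trp53i11 (−2.03, adjusted p = 0.000142). Cdkn1a was lower in proximal organoids in WENR-minus with Cdx2-sgRNA (−3.06, SE 0.22, adjusted p = 1.81e-06) and with Scramble-sgRNA (−1.45, SE 0.21, adjusted p = 0.00210). With Scramble-sgRNA 1 other target gene, Sesn1, was higher (1.77, adjusted p = 0.00240) and 6 were lower in WENR-minus, down to Fdxr (−1.75, adjusted p = 0.00237), and none was called in WENR-plus (3 with an unadjusted p under 0.05, 0 by DESeq2). Of the regulators 6 were higher and 2 lower with Cdx2-sgRNA in WENR-minus, from Chek1 (3.24, adjusted p = 0.00113) to Cop1 (−1.10, adjusted p = 0.000208), and 1 was higher and 3 lower in WENR-plus, from Mdm4 (0.47, adjusted p = 0.0170) to Hipk2 (−0.93, adjusted p = 0.00266). None was called with Scramble-sgRNA, where 1 in WENR-minus and 2 in WENR-plus had an unadjusted p under 0.05 and DESeq2 called 0.

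Differences between these effects were tested directly. Whether the guide acted differently in the regions was tested as its proximal log2 fold change minus its distal one. In WENR-minus 1 of the 10 genes, Aen, passed, where 6.2% of all genes were higher and 11% lower. With Cdx2-sgRNA Aen stood at 0.69 in proximal organoids, whereas the distal value was −0.65 (SE 0.24, adjusted p = 0.118). Their difference was 1.34 (SE 0.33, adjusted p = 0.0181). It was lost without distal Cdx2-sgRNA replicate 1 (1.14, adjusted p = 0.0726) or distal Scramble-sgRNA replicate 2 (1.24, adjusted p = 0.0753), and in a fit of the compared groups alone (1.39, adjusted p = 0.0698). The same difference was 1.17 for Eda2r (SE 0.48, adjusted p = 0.117) and 1.02 for Phlda3 (SE 0.46, adjusted p = 0.153), and the other 7 genes ran from −0.67 (Perp) to 0.67 (Trp53).

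In WENR-plus no gene passed that test in edgeR (1.41% of all genes higher, 4.29% lower). An unadjusted p under 0.05 was held by 6, and DESeq2 called 2, Phlda3 and Eda2r, beside 3209 and 1556 of all genes. Phlda3 differed by 1.67 (SE 0.45, adjusted p = 0.0541) and Eda2r by 1.44 (SE 0.43, adjusted p = 0.0771), and the others ran from −0.36 (Trp53) to 1.03 (Ccng1). That the guide passed the test in proximal and not in distal organoids therefore does not by itself show a difference between the regions for these genes.

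Withdrawal was compared between the guides in the same way, and none of the 10 genes passed. In proximal organoids 2 had an unadjusted p under 0.05 and DESeq2 called 1, Trp53, beside 3277 and 1725 of all genes. By edgeR 2.08% of all genes were higher there and 2.3% lower. Trp53 differed there by 0.82 (SE 0.26, adjusted p = 0.101) and Ccng1 by −1.00 (SE 0.41, adjusted p = 0.189), with the other 8 genes in between. With the culture as a block 2 genes passed, Ccng1 (−1.00, SE 0.21, adjusted p = 0.0123) and Perp (−0.71, SE 0.19, adjusted p = 0.0312). By that fit Ccng1 fell more and Perp rose less in proximal Cdx2-sgRNA than in proximal Scramble-sgRNA cultures. The share of all genes that passed in it is not given here. In distal organoids 0 of the 10 had an unadjusted p under 0.05, DESeq2 called none, and 0% of all genes were called in either direction, although 1457 had an unadjusted p under 0.05 and DESeq2 called 186. There the 10 genes ran from −0.21 (Trp53) to 0.79 (Phlda3). The medians of the 4 sets of differences were 0.33, 0.61, 0.17 and 0.30, beside 0.00, −0.04, 0.00 and −0.01 over all genes.

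The 33 other target genes were put through the same tests. The guide's log2 fold change in WENR-minus was higher in proximal organoids for 3 and lower for 8 (all genes 6.2% and 11%), from Psrc1 (3.19, adjusted p = 0.0357) to Fas (−3.41, adjusted p = 0.0208), with Cdkn1a in between (−1.60, SE 0.29, adjusted p = 0.00408). Fas held 3 to 81 reads in a library and Psrc1 3 to 571, so the largest of these values rest on few reads. In WENR-plus, where 1.41% of all genes were higher and 4.29% lower, 1 was lower, Trp53i11 (−1.54, adjusted p = 0.0169). For withdrawal in proximal organoids 1 was higher and 3 lower with Cdx2-sgRNA (all genes 2.08% and 2.3%), from Trp53i11 (1.50, adjusted p = 0.0313) to Fas (−5.20, adjusted p = 0.0170), with Cdkn1a in between (−1.31, SE 0.29, adjusted p = 0.0358), and in distal organoids none was called (3 with an unadjusted p under 0.05, 0 by DESeq2). Regulators, beside the same shares of all genes, gave 5 higher and 1 lower for the first of these tests, from Chek1 (2.55, adjusted p = 0.0492) to Cop1 (−1.01, adjusted p = 0.0102), 1 lower for the second, Hipk2 (−0.96, adjusted p = 0.0411), 1 higher for withdrawal in proximal organoids, Atr (0.74, adjusted p = 0.0421), and none for withdrawal in distal organoids (3 with an unadjusted p under 0.05, 0 by DESeq2). In the first of these tests and in proximal withdrawal 9 and 5 of the 12 proliferation genes were higher as well and 0 lower. Cell markers were called too: 6 of 6 goblet cell, 5 of 7 colonocyte and 3 of 6 epithelial markers were lower in the first test, 4, 2 and 1 in the second and 1, 2 and 2 for withdrawal in proximal organoids, with none higher. Their part in these results was not tested.

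Over the 16 libraries the genes formed no single block. Pearson's r of log2 CPM, as a description over libraries that share groups and media, ran from −0.85 (Trp53 and Perp) to 0.95 (Aen and Eda2r) among the 45 pairs, of which 26 were positive. For Trp53 it was positive with Aen (0.87), Bax (0.77), Eda2r (0.75) and Zmat3 (0.74) and negative with Trp53inp1 (−0.83), Perp (−0.85) and Mdm2 (−0.58). Within groups, over the 8 differences between replicates, 43 of the 45 pairs were positive with a median of 0.52. This rested on the proximal Cdx2-sgRNA cultures: over the other 6 groups 24 pairs were positive and the median was 0.03.

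The genes outside the 10 that were most like the mean z-score of the 9 targets over the 16 libraries were Eif2d, a translation initiation factor (r = 0.95), the kinase gene Dyrk3 (0.93), the prostaglandin synthase gene Ptgds (0.92), Gm44901, Gm44260, Gm4544, Gfra4, Commd2, Gm45148 and Slc25a36, the last at r = 0.89. None of these was on the lists of other p53 target genes or of proliferation genes. Among the 9 targets themselves Phlda3 (0.93), Ccng1 (0.88) and Eda2r (0.85) followed the mean most closely, and Trp53inp1 (−0.25) and Perp (−0.34) went against it.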

How the data were processed

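The 16 mouse colon organoid libraries were strand-specific (SMARTer kit for total RNA) and were read from both ends (the labels name the molecule as genomic DNA, whereas the methods and the transcript tables are of RNA). As deposited, the values are estimated counts for each transcript. The authors obtained them with Salmon 1.1.0 and GENCODE vM23 (mm10), and they are not scaled between libraries. The deposited TPM values and effective lengths come from the same Salmon run of the authors. Of 140748 transcripts 139864 were matched to GENCODE vM21 and summed to 54123 genes. The other 884 held at most 0.509% of a library and were left out.

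Summed counts were rounded and tested with edgeR 4.0.16 in R 4.3.3 (filterByExpr, TMM, 1 coefficient per group over all 16 libraries, glmQLFTest, 8 residual degrees of freedom). Benjamini-Hochberg adjustment ran over 15289 genes per contrast, with calls made below an adjusted p of 0.05. The SE was taken as |log2 fold change| over the square root of the F statistic. Correlations used log2 CPM with a prior count of 2. DESeq2 1.42.0, other scalings and filters, length-scaled counts, a fold threshold, blocks and left-out libraries were tried as alternatives.

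By the rule for named genes, all 10 genes enter every comparison, with full statistics where called and otherwise a value, an adjusted p or the ends of a range, and the text names Cdkn1a and, of each list, the called genes with the highest and lowest log2 fold change. Atm in distal WENR-minus organoids, Ccng2, Plk3, Sfn, Trp63 and single marker genes of other cell types were named outside it, after their values were seen. The 10 genes and all lists were chosen with earlier results of these data known. The replicate number was taken to mark the mouse, as the methods describe 2 mice. Replicate differences over all tested genes correlated between the media of a culture in 4 of 4 cases (r = 0.281 to 0.589), but over 0.1 in only 9 of all 28 pairs of groups. The main fit paired no libraries, and the media of a culture were paired only in the culture block. In the main tests both media libraries of a culture therefore count as independent in the residual degrees of freedom. Library totals were 12465194 to 18922143 counts. For genes at few reads in a library, the lower values of Eda2r, Aen, Phlda3, Trp53 and Bax (34 to 94 reads at their lowest) among them, counting error can be as large as the difference between replicates.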

Additional observations from a re-analysis of the deposited data

Results flagged for a closer look

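Aen was singled out because the effect of Cdx2-sgRNA on it differed between the regions by a test of the difference itself. The effect in proximal minus that in distal WENR-minus organoids was 1.34 on the log2 scale (SE 0.33, adjusted p = 0.0181, edgeR), from 17.2 and 15.4 CPM with Cdx2-sgRNA against 7.75 and 12.4 with Scramble-sgRNA in proximal organoids and 3.38 and 4.52 against 5.77 and 6.59 in distal ones. Leaving out single libraries gave 1.07 to 1.71, and the call was lost without distal Cdx2-sgRNA replicate 1 (1.14, adjusted p = 0.0726) or distal Scramble-sgRNA replicate 2 (1.24, adjusted p = 0.0753). A fit of the compared groups alone ended it too (1.39, adjusted p = 0.0698).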

How the results depend on the processing

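Of 605 values of called genes under the alternatives, 501 kept their direction and side of the threshold, 104 kept their direction and lost the call, and none reversed. Given here are the numbers of the 10 genes called that moved by over 1.5 times or from or to 0, and smaller shifts, of 1 to 3 calls, are left out. RLE size factors moved 1 of them so far, the effect of Cdx2-sgRNA between regions in WENR-plus (from 0 to 1). Without a filter on low counts the number became 1 for Cdx2-sgRNA in distal WENR-minus, 5 for withdrawal in proximal Cdx2-sgRNA, 2 and 1 for the regions with Scramble-sgRNA in WENR-minus and WENR-plus, 2 and 4 for the effect of Cdx2-sgRNA between regions in WENR-minus and WENR-plus, and 1 for withdrawal between guides in proximal organoids. With at least 10 counts in every library it was 2 for Cdx2-sgRNA in distal WENR-minus, 3 for the regions with Scramble-sgRNA in WENR-minus and 1 for the effect of Cdx2-sgRNA between regions in WENR-plus. DESeq2 gave 2, 2, 1, 2 and 1 for Cdx2-sgRNA in distal WENR-minus, the regions with Scramble-sgRNA in WENR-minus and WENR-plus, the effect of Cdx2-sgRNA between regions in WENR-plus and withdrawal between guides in proximal organoids. A fold change over 2 left 2 calls for Cdx2-sgRNA in proximal WENR-plus, 3 for withdrawal in proximal Scramble-sgRNA and 2 for the regions with Cdx2-sgRNA in WENR-plus.

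Fits of the compared groups alone, with fewer residual degrees of freedom, gave 2 and 3 for Cdx2-sgRNA in proximal WENR-minus and WENR-plus, 1 in distal WENR-minus, 0 for withdrawal in proximal Cdx2-sgRNA, 1 and 1 for the regions with Scramble-sgRNA, 2 for the regions with Cdx2-sgRNA in WENR-plus and 0 for the effect of Cdx2-sgRNA between regions in WENR-minus. The replicate block gave 1 for Cdx2-sgRNA in distal WENR-minus and 1 for the regions with Scramble-sgRNA in WENR-minus, and kept all 48 calls. The culture block gave 8 and 7 for withdrawal in proximal Scramble-sgRNA and Cdx2-sgRNA and 2 for its difference between guides in proximal organoids.

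With each library left out in turn, where the lone library of a group is assumed to vary like the others, the numbers were 1 to 3 and 1 to 4 for Cdx2-sgRNA in proximal WENR-minus and WENR-plus, 2 to 4 and 1 to 3 for withdrawal in proximal Scramble-sgRNA and Cdx2-sgRNA, 0 to 1 for the regions with Scramble-sgRNA in WENR-minus, 1 to 5 for the regions with Cdx2-sgRNA in WENR-plus, and 0 to 1 and 0 to 1 for the effect of Cdx2-sgRNA between regions in WENR-minus and WENR-plus (1 in WENR-plus without proximal Cdx2-sgRNA replicate 2). Withdrawal in distal organoids kept 6 to 8 calls with Scramble-sgRNA and 7 to 9 with Cdx2-sgRNA. The cause of these shifts was not tested. A wider promoter window was not run, as no genome of the build was used here. The fewest reads in a library were 34 for Eda2r, 40 for Aen, 40 for Phlda3, 85 for Trp53 and 94 for Bax.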
